A study of Homo sapiens with 9 samples.

Results

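The heat shock and chaperone genes described here are 38 genes listed by name, taken from the 19918 gene symbols in the count tables of VCaP cells. They encode 2 heat shock transcription factors, 6 HSP70 and HSP110 chaperones, 6 J-domain co-chaperones, 2 BAG nucleotide exchange factors, 2 small heat shock proteins, 2 HSP90 chaperones, 6 HSP90 co-chaperones, the 8 subunits of the cytosolic chaperonin CCT and 4 mitochondrial chaperones. The choice was by name, made with earlier results of these data known. All 38 symbols were listed in every table, and 35 held enough counts to be tested.

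VCaP is an established prostate cancer cell line, labelled as epithelial. The study asked what follows the loss of the antisense lncRNA IGF1R-AS1, and cells had been given 1 of 2 siRNAs against its exon 1, si025 or si033, or a control siRNA. The labels give the genotype of both siRNA groups as IGF1R-AS1 knockdown and that of the control group as WT. All groups shared the line, reverse transfection with RNAiMAX at 100 pmol of siRNA, harvest at 72 h and 1.3 µg of total RNA per library, and each held 3 libraries. No level of IGF1R-AS1 itself is given, as that RNA was not analysed here. MYC, the gene on which the study centres, lay at 439.7, 457 and 435 CPM (counts scaled to a common library size) in the control libraries, at 262, 267 and 245 CPM with si025 and at 320.2, 307 and 303 CPM with si033, so it was lower in every siRNA library than in every control library.

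Chaperones bind unfolded or partly folded proteins and help them reach or keep their native shape. HSP70 proteins bind short hydrophobic stretches in a cycle driven by ATP, which J-domain proteins start and nucleotide exchange factors such as the BAG proteins end. HSP90 acts later, on nearly folded clients that include steroid hormone receptors, while the ring-shaped CCT complex folds actin and tubulin. After heat or other protein damage the transcription factor HSF1 binds heat shock elements in DNA and raises many of these genes together.

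Total counts ranged from 11649811 to 28492259 per library, with 14735 to 15474 genes holding at least 1 count. Of the 19918 genes, 12810 passed the filter on low counts, and the biological coefficient of variation was 4.13%. Prostate markers were present, with ERG at 271 to 453 CPM, although KLK3 reached only 11.9 to 42.1 CPM. The 7 prostate markers reported here summed to 4441.5 to 4522 CPM in the control libraries, to 6693 to 7027 CPM with si025 and to 3664 to 3886 CPM with si033, so these groups did not overlap, and the part of this shift in the results given here was not tested. Markers of other cell types stayed low in each library, at up to 1.67 CPM summed for blood, 2.25 CPM for endothelium and 4.07 CPM for stroma, with CD3E and CDH5 at 0.

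The chaperone genes were mostly lower after either siRNA. Together the 38 genes took 1.78%, 1.83% and 1.84% of all counts in the control libraries, 1.55%, 1.61% and 1.58% with si025, and 1.68%, 1.69% and 1.67% with si033. These shares did not overlap between any of the 3 groups. With si025, 27 of the 35 tested genes fell (77.1%, against 28.8% of all genes tested) and 3 rose (8.57%, against 32.9%), so that 30 were called (85.7%, against 61.7%). With si033, 25 fell (71.4%, against 27.8% of all genes) and 2 rose (5.71%, against 26.9%), so that 27 were called (77.1%, against 54.8%). High counts let smaller changes be called, and the shares of all genes were not matched for expression level. A call here is an adjusted p under 0.05 by edgeR's quasi-likelihood test with Benjamini-Hochberg adjustment over all 12810 genes. Adjusted p-values below come from that fit, unless a left-out library or another alternative setting is named. In bulk RNA, fewer cells expressing a gene and less RNA per cell cannot be told apart.

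**Figure D1:**
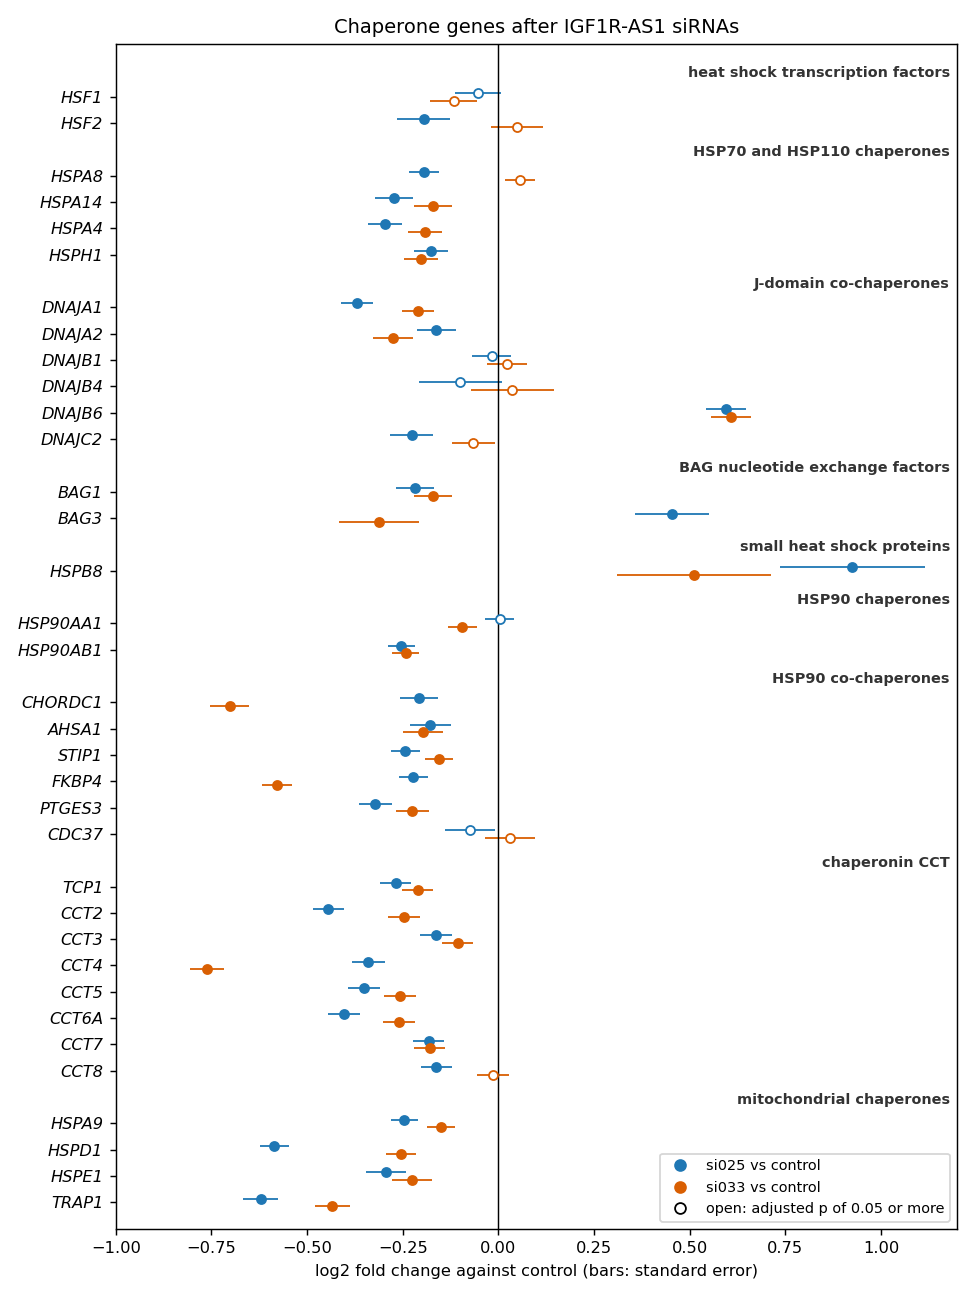
The plot gives, for each of the 35 tested genes grouped by role, the log2 fold change of si025 (blue) and of si033 (orange) against control on the x axis, with bars for the standard error and open circles where the adjusted p was 0.05 or more. Most points lie between -0.40 and 0, with DNAJB6 and HSPB8 to the right of 0 for both siRNAs and BAG3 on opposite sides.

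The changes were small in size. The median log2 fold change over the 35 genes was -0.22 with si025 and -0.19 with si033, against 0.017 and 0.0033 over all genes tested. Single genes ranged from -0.62 (TRAP1) to 0.93 (HSPB8) with si025 and from -0.76 (CCT4) to 0.61 (DNAJB6) with si033. The interquartile range was -0.30 to -0.16 with si025 and -0.25 to -0.080 with si033. Over all genes tested it was -0.21 to 0.32 with si025 and -0.21 to 0.24 with si033. Both comparisons share the 3 control libraries, so the values of the 2 siRNAs are given side by side and are not independent of each other.

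**Figure D2:**
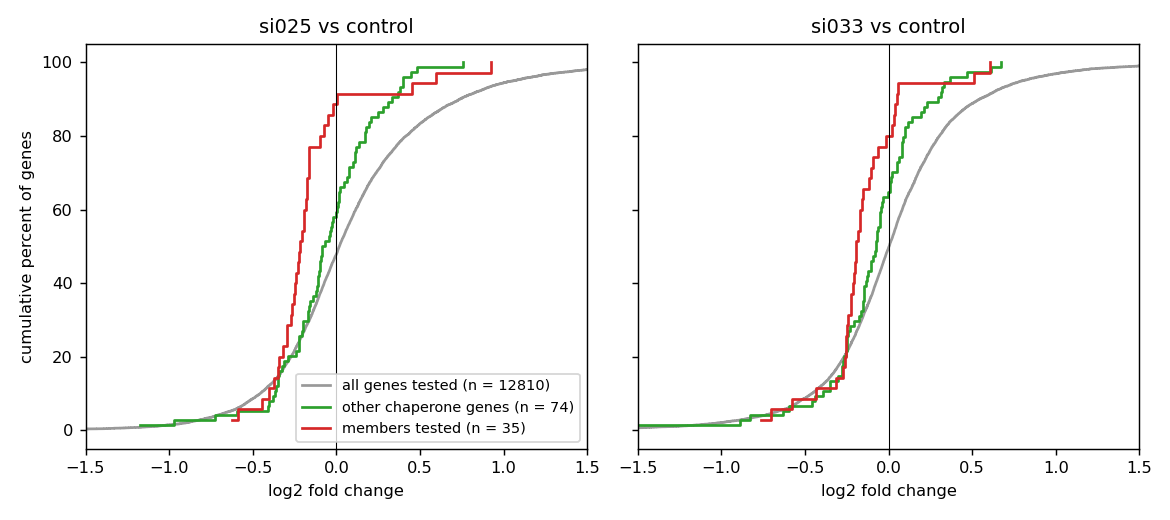
The curves give the cumulative percent of genes (y axis) at or below each log2 fold change against control (x axis, clipped at both ends) for si025 on the left and si033 on the right, for the 35 tested members (red), 74 other chaperone genes (green) and all 12810 genes tested (grey). The red curve rises steeply to the left of 0, with a median of -0.22 on the left and -0.19 on the right, while the grey curve crosses 50% close to 0.

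Of the heat shock transcription factors, HSF1 was not called with either siRNA, and HSF2 was called lower with si025 only. HSF1, the main activator of the heat shock response, lay at 59.5, 59.9 and 54.3 CPM in the control libraries, at 54.9, 58.0 and 53.7 CPM with si025 and at 58.0, 49.8 and 52.0 CPM with si033. Its groups overlapped in both comparisons, and the differences were not called with si025 (log2 fold change of -0.053 with an SE of 0.061, adjusted p = 0.464) or with si033 (log2 fold change of -0.12 with an SE of 0.061, adjusted p = 0.112). Leaving out si033 replicate 1 turned the second into a call, at a log2 fold change of -0.16 and an adjusted p of 0.031 by edgeR. HSF2, a related factor that can form mixed trimers with HSF1, lay at 27.0, 30.2 and 30.5 CPM in control, at 24.1, 26.7 and 26.0 CPM with si025 and at 28.0, 32.0 and 31.0 CPM with si033. HSF2 fell with si025 (log2 fold change of -0.20 with an SE of 0.069, adjusted p = 0.0173), whose 3 libraries were all below the control libraries, and was not called with si033 (log2 fold change of 0.049 with an SE of 0.068, adjusted p = 0.568). The call with si025 was lost without control replicate 2, control replicate 3 or si025 replicate 1, at adjusted p-values by edgeR of 0.0544 to 0.0969.

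Since HSF1 acts through heat shock elements, the promoters of the listed genes were searched for them. RefSeq promoter sequences of GRCh38.p14, from 250 bases before to 50 bases after a start site, matched 34 of the 38 genes by symbol. These genes had 46 entries. A gene was counted if any of its entries matched, so genes with more entries had more chances to match. A pair of inverted units, GAANNTTC or TTCNNGAA, was present on either strand in 18 of the 34 (52.9%), against 16.2% of all 27305 genes with a promoter entry. A run of 3 alternating units, GAA and its reverse complement 2 bases apart, which always includes such a pair, was present in 7 of the 34 (20.6%), against 0.608% of all genes: HSPA8, DNAJA1, DNAJB6, HSP90AA1, HSP90AB1, CHORDC1 and HSPD1. The E-box CACGTG, the sequence bound by MYC, was present in 4 (11.8%, against 8.78%), namely HSF2, HSPA9, HSPD1 and HSPE1, and the CCAAT box (CCAAT or ATTGG) in 11 (32.4%, against 39.7%). These matches are letters in a window and not measured binding. The list was chosen by name as heat shock and chaperone genes, so its shares describe that choice and are not a test. Entries per gene were not matched to those of all genes.

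For 6 of these genes the 250 bases before a start site are printed here, 5′ to 3′ on the strand of the gene. They show the elements that carry the search, with the runs of 3 units in capitals. HSPD1, HSP90AB1 and HSP90AA1 have several promoter entries, and the run was absent from their other entries. Of the windows printed, only that of DNAJB6 lies wholly before the annotated span of its gene. In DNAJA1 the run lay after the start site and is not shown.
HSPA8, chr11:123062137-123062386, minus strand: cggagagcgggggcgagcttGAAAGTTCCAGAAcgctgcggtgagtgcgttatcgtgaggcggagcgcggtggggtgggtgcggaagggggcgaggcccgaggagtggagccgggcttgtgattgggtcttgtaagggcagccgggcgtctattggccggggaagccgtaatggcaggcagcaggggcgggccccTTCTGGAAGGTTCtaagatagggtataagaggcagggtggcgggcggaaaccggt
HSP90AB1, chr6:44247693-44247942, plus strand: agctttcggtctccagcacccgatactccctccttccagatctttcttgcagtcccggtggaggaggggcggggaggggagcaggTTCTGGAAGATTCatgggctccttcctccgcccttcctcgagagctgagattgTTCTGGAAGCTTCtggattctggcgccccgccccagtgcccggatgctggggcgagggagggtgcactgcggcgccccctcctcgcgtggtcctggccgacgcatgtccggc
HSP90AA1, chr14:102087045-102087294, minus strand: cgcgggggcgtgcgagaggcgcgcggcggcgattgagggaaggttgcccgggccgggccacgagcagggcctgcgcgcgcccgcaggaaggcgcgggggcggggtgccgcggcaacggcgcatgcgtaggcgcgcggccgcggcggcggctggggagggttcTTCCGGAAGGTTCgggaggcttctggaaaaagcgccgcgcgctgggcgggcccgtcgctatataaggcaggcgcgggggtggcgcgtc
CHORDC1, chr11:90223050-90223299, minus strand: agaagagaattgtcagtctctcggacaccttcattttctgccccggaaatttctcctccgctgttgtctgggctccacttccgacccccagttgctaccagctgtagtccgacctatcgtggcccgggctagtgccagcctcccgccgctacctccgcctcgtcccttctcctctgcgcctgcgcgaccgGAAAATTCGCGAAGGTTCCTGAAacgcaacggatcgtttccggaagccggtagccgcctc
DNAJB6, chr7:157336754-157337003, plus strand: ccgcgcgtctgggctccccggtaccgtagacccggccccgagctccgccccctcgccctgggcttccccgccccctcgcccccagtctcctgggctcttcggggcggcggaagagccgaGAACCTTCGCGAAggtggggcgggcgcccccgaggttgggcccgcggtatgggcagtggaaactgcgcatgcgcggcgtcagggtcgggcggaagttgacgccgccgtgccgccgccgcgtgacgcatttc
HSPD1, chr2:197499841-197500090, minus strand: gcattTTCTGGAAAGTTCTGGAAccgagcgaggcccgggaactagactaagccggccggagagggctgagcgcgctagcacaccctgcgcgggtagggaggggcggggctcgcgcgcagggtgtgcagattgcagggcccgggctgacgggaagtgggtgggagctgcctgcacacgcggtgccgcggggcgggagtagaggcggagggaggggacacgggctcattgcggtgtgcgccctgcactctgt

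The median changes of genes with and without such a run lay close together, and their difference was not tested. Among the 7 genes with the run the median log2 fold change was -0.21 with si025 and -0.21 with si033, and among the 24 tested genes with a promoter entry but no run it was -0.21 and -0.19. The 7 did not move as a block, since DNAJB6 rose with both siRNAs while HSP90AB1, CHORDC1, DNAJA1 and HSPD1 fell with both. HSPA8 was called in the si025 comparison and not in the si033 one, and HSP90AA1 the other way round.

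Of the HSP70 and HSP110 genes, HSPA1A and HSPA1B, the classical heat-inducible HSP70 pair, held 0 counts in all 9 libraries. A count of 0 allows up to 3 counts, which is 0.105 to 0.258 CPM depending on the library and covers counting error only. Both lie on chromosome 6 at hg38 positions 31815514 to 31817942 and 31827735 to 31830254, and 75.1% of the 50-base words of an HSPA1A transcript also occur in HSPA1B, where read pairs that map to several places were not counted. Of 62 other listed genes within 500 kb of HSPA1A, 40 (64.5%) were also at 0 in all libraries and 0 held over 100 counts in each library, whereas 15.8% of all 19918 genes were at 0 throughout. The values therefore give no level for this gene pair, and the cause of the zeros was not tested.

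HSPA8, the constitutive HSP70 of the cytosol, was the highest of the listed genes per exon length. It lay at 2897, 3102 and 3116 CPM in control, at 2578, 2751 and 2640.3 CPM with si025 and at 3126, 3239 and 3111 CPM with si033. HSPA8 fell with si025 (log2 fold change of -0.19 with an SE of 0.039, adjusted p = 0.000154) but was not called with si033 (log2 fold change of 0.056 with an SE of 0.039, adjusted p = 0.234), and only the si025 libraries lay apart from control. The siRNAs differed by -0.25 on the log2 scale (SE 0.039, adjusted p = 7.42e-06). HSPA4 and HSPH1, HSP110 proteins that release ADP from HSP70, fell with both siRNAs. The log2 fold change of HSPA4 was -0.30 with si025 and -0.19 with si033, and that of HSPH1 was -0.18 and -0.20. HSPA14, an HSP70-like protein bound to the ribosome, also fell, with log2 fold changes of -0.27 and -0.17, while 15.8% of its 50-base words are shared with MSANTD7.

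The J-domain genes split. DNAJB6, whose protein keeps polyglutamine proteins from aggregating, lay at 47.8, 51.4 and 51.8 CPM in control, at 78.0, 74.7 and 76.6 CPM with si025 and at 79.4, 77.8 and 74.8 CPM with si033. Every siRNA library lay above every control library, and DNAJB6 rose with si025 (log2 fold change of 0.60 with an SE of 0.052, adjusted p = 1.07e-09) and with si033 (log2 fold change of 0.61 with an SE of 0.053, adjusted p = 1.22e-09). The fitted levels were 51.1% and 52.5% above control, and the 95% interval of the difference between the siRNAs ran from -0.12 to 0.091 on the log2 scale. DNAJB6 shares 19.4% of its 50-base words with other genes, nearly all with the pseudogene DNAJB6P1.

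DNAJA1, a major partner of cytosolic HSP70, moved the other way. Its level was 455, 465 and 482 CPM in control, 346, 377 and 362 CPM with si025 and 404, 411 and 399 CPM with si033, with no overlap between any of the groups. DNAJA1 fell with si025 (log2 fold change of -0.37 with an SE of 0.042, adjusted p = 6.89e-08) and with si033 (log2 fold change of -0.21 with an SE of 0.042, adjusted p = 0.000197). DNAJA2, its close relative, fell with si025 (log2 fold change -0.16) and si033 (-0.27), although without control replicate 3 the first was -0.13 with an adjusted p of 0.0714 by edgeR. DNAJC2, a ribosome-bound J-domain protein that works with HSPA14, fell with si025 (-0.23, adjusted p = 0.00112) and was not called with si033 (-0.065, adjusted p = 0.331). DNAJB1 and DNAJB4, J-domain proteins that rise in the heat shock response, were not called in either comparison. The log2 fold changes of DNAJB1 were -0.018 and 0.023, with 95% intervals of -0.12 to 0.089 and -0.084 to 0.13.

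BAG3 was the one listed gene that was called in opposite directions. It encodes a nucleotide exchange factor that directs HSP70 clients to autophagy, together with the small heat shock protein HSPB8. BAG3 lay at 9.43, 11.02 and 9.77 CPM in the control libraries, at 13.7, 14.5 and 13.1 CPM with si025 and at 8.16, 7.27 and 8.56 CPM with si033, and none of the 3 groups overlapped. It rose with si025 (log2 fold change of 0.45 with an SE of 0.097, adjusted p = 0.000301) and fell with si033 (log2 fold change of -0.31 with an SE of 0.11, adjusted p = 0.015), and the direct difference was 0.77 (SE 0.099, adjusted p = 5.47e-07). The fall with si033 was lost without control replicate 2 (log2 fold change -0.25, adjusted p = 0.0822 by edgeR) or si033 replicate 2 (-0.26, adjusted p = 0.059). BAG1, which binds HSP70 and the proteasome, fell with both, at log2 fold changes of -0.22 with si025 and -0.17 with si033.

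HSPB8 was scarce, at 1.66, 1.30 and 1.58 CPM in control, 2.88, 3.08 and 2.74 CPM with si025 and 2.14, 2.32 and 2.11 CPM with si033. All siRNA libraries lay above all control libraries, the si025 libraries highest. It rose with si025 (log2 fold change of 0.93 with an SE of 0.19, adjusted p = 0.000194), and with si033 the test passed narrowly (log2 fold change of 0.51 with an SE of 0.20, adjusted p = 0.0348). The latter call was lost without control replicate 2 or 3 or without si033 replicate 1, 2 or 3, in DESeq2 and with no filter on low counts, at adjusted p-values of 0.056 to 0.123. HSPB1, the other small heat shock protein listed, held 2 to 10 counts per library and was not tested.

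The 2 cytosolic HSP90 genes differed. HSP90AB1, the constitutive form, lay at 2408, 2521 and 2519.6 CPM in control, at 2094, 2103 and 2051 CPM with si025 and at 2111, 2097 and 2088 CPM with si033, so both siRNA groups lay below control. HSP90AB1 fell with si025 (log2 fold change of -0.25 with an SE of 0.035, adjusted p = 1.66e-06) and with si033 (log2 fold change of -0.24 with an SE of 0.035, adjusted p = 4.17e-06). HSP90AA1, the inducible form, lay at 1148, 1165 and 1222 CPM in control, at 1149, 1192 and 1203 CPM with si025 and at 1097, 1104 and 1110.0 CPM with si033. The si025 libraries overlapped the control libraries (log2 fold change of 0.0036 with an SE of 0.038, adjusted p = 0.941), with a 95% interval of -0.075 to 0.082. With si033 HSP90AA1 was called lower by a small margin (log2 fold change of -0.095 with an SE of 0.038, adjusted p = 0.0386), and this call was lost without any 1 of the control or si033 libraries or without si025 replicate 3, with upper quartile normalization and with the stricter filter, at adjusted p-values by edgeR of 0.0503 to 0.233. Per exon length, the ratio of HSP90AB1 to HSP90AA1 was 2.90 to 3.05 in control, 2.40 to 2.56 with si025 and 2.65 to 2.71 with si033.

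Among the HSP90 co-chaperones, 5 of 6 fell with each siRNA (83.3%, against 28.8% of all genes tested with si025 and 27.8% with si033). CHORDC1 and FKBP4 fell most with si033. CHORDC1, a zinc-binding HSP90 partner, lay at 138, 133 and 142 CPM in control, at 115, 116 and 126 CPM with si025 and at 81.3, 87.0 and 85.7 CPM with si033. Its fall was modest with si025 (log2 fold change of -0.21 with an SE of 0.049, adjusted p = 0.000828) and larger with si033 (log2 fold change of -0.70 with an SE of 0.051, adjusted p = 5.4e-11), and the siRNAs differed by 0.50 (SE 0.051, adjusted p = 1.42e-08). FKBP4, an immunophilin that assists steroid receptor complexes, lay at 622, 639 and 634 CPM in control, at 532, 556 and 536 CPM with si025 and at 429.6, 419 and 421 CPM with si033. No 2 of its groups overlapped, and its log2 fold change was -0.22 (adjusted p = 2.61e-05) with si025 and -0.58 (adjusted p = 1.5e-11) with si033. With si033, CHORDC1 fell by 38.6%. FKBP4 fell by 33.0% with the same siRNA.

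The other HSP90 co-chaperones moved less. STIP1, which links HSP70 to HSP90, fell with log2 fold changes of -0.24 with si025 and -0.16 with si033. PTGES3, the p23 protein that stabilises the closed form of HSP90, had values of -0.32 and -0.22 and fell with both. AHSA1, which stimulates the ATPase of HSP90, fell with both siRNAs as well, at -0.18 and -0.20 on the log2 scale. CDC37, which brings kinases to HSP90, was not called in either comparison, with log2 fold changes of -0.075 (95% interval -0.21 to 0.059) and 0.030 (-0.10 to 0.16).

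**Figure D3:**
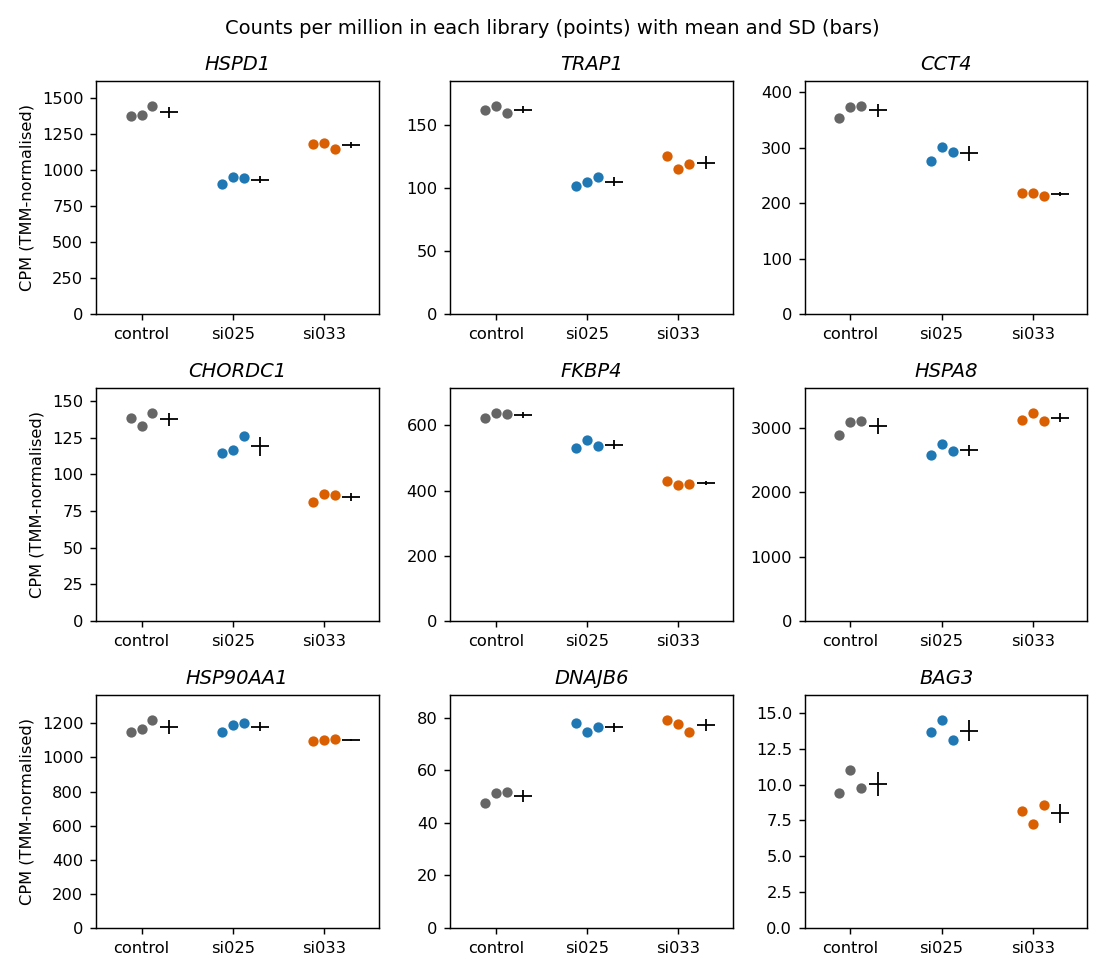
Each panel gives 1 gene, with CPM on TMM library sizes on the y axis from 0, a point for each of the 3 control (grey), si025 (blue) and si033 (orange) libraries, and the mean with its SD beside them. HSPD1 and TRAP1 were lowest with si025, CCT4, CHORDC1 and FKBP4 were lowest with si033, DNAJB6 was above control with both, and BAG3 was above control with si025 and below it with si033.

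All 8 subunits of CCT fell with si025 (100%, against 28.8% of all genes tested) and 7 of 8 with si033 (87.5%, against 27.8%). The chaperonin is built from 1 copy of each subunit per ring, 8 in all. The subunit genes took 0.381% to 0.394% of counts in the control libraries, 0.323% to 0.337% with si025 and 0.340% to 0.355% with si033. Their median log2 fold change was -0.30 with si025 and -0.23 with si033.

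CCT4 had the lowest fold change of the subunits with si033. It lay at 353, 374 and 375 CPM in control, at 276, 302 and 293 CPM with si025 and at 219, 218 and 214 CPM with si033, and the groups did not overlap. CCT4 fell with si025 (log2 fold change of -0.34 with an SE of 0.043, adjusted p = 4.26e-07) and with si033 (log2 fold change of -0.76 with an SE of 0.044, adjusted p = 1.13e-12), and with si033 it fell by 41.0%. The direct difference was 0.42 (SE 0.044, adjusted p = 2.03e-08), and no 50-base word of its transcript was shared with another gene. The remaining 7 subunits lay between -0.26 (CCT6A) and -0.015 (CCT8) with si033.

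CCT2 and CCT6A fell most with si025. CCT2 lay at 490.0, 496 and 521 CPM in control, at 362, 381 and 366 CPM with si025 and at 417, 438 and 416 CPM with si033. It fell with si025 (log2 fold change of -0.44 with an SE of 0.042, adjusted p = 3.22e-09) and less with si033 (log2 fold change of -0.25 with an SE of 0.042, adjusted p = 2.51e-05), a difference that the direct comparison called (adjusted p = 0.000293). The log2 fold changes of CCT6A were -0.40 and -0.26, those of CCT5 -0.35 and -0.26, those of TCP1 -0.27 and -0.21, and those of CCT7 -0.18 and -0.18, all called. CCT3 had log2 fold changes of -0.16 and -0.11, both called, but its call with si033 (adjusted p = 0.0312) was lost without control replicate 1, 2 or 3 or si033 replicate 3 and with upper quartile normalization and the stricter filter, at adjusted p-values by edgeR of 0.0647 to 0.187. CCT8 lay at 778, 819.6 and 832 CPM in control, 702, 738 and 732 CPM with si025 and 783, 836 and 787 CPM with si033. It fell with si025 (log2 fold change of -0.16 with an SE of 0.041, adjusted p = 0.00162), while its si033 libraries overlapped the control libraries (log2 fold change of -0.015 with an SE of 0.041, adjusted p = 0.785).

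Although the subunits form 1 complex, their levels per exon length were unequal. CCT8 was the highest of the 8 in all 9 libraries. By the exon length used, the lowest was CCT5 in the control and si025 libraries and CCT4 in the si033 libraries. The ratio of the highest to the lowest subunit was 2.50 to 2.66 in control, 2.89 to 3.01 with si025 and 3.63 to 3.89 with si033, with no overlap between groups. The exon length used was 4032 bases for CCT5 and 2349 for CCT4. A single GENCODE transcript was 3293 bases for CCT5 and 2376 for CCT4. Which subunit was lowest, and the size of the ratio, therefore depend on the length chosen. The fold changes of each subunit between groups do not.

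**Figure D4:**
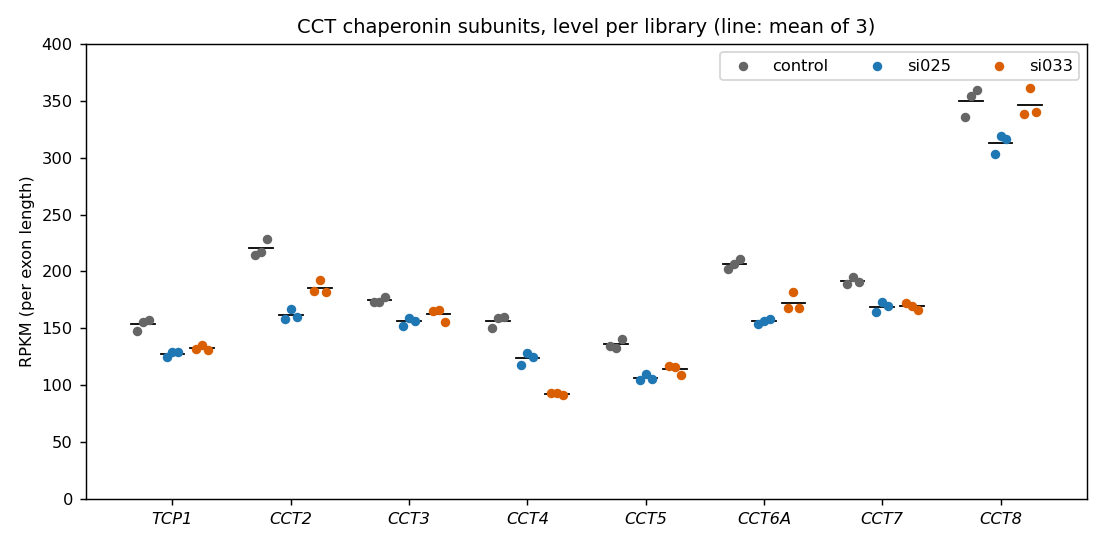
The 8 CCT subunit genes are placed along the x axis, with RPKM (CPM per kilobase of exon) on the y axis, a point for each control (grey), si025 (blue) and si033 (orange) library and a line for the mean of 3. CCT8 lies above the other subunits in every library, and CCT4 drops from a mean of 156 in control to 123 with si025 and 92.3 with si033.

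All 4 mitochondrial chaperones fell with both siRNAs (100%, against 28.8% of all genes tested with si025 and 27.8% with si033). HSPD1, the mitochondrial chaperonin HSP60, lay at 1369, 1380.0 and 1441 CPM in control, at 903, 949 and 939.8 CPM with si025 and at 1181, 1186 and 1146 CPM with si033. No groups overlapped, and HSPD1 fell by 33.4% with si025 (log2 fold change of -0.59 with an SE of 0.038, adjusted p = 6.99e-12), whereas it fell by 16.2% with si033 (log2 fold change of -0.25 with an SE of 0.038, adjusted p = 5.79e-06). TRAP1, the HSP90 of mitochondria, lay at 162, 165 and 160.0 CPM in control, at 102, 105 and 109 CPM with si025 and at 126, 115 and 119 CPM with si033. It too was ordered si025, si033 and control from low to high without overlap, and fell with si025 (log2 fold change of -0.62 with an SE of 0.046, adjusted p = 7.18e-11) and si033 (log2 fold change of -0.43 with an SE of 0.046, adjusted p = 4.11e-08). HSPA9, the mitochondrial HSP70 that pulls proteins across the inner membrane, fell with log2 fold changes of -0.25 and -0.15.

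HSPE1, the HSP10 lid of HSP60, fell with si025 (log2 fold change of -0.29 with an SE of 0.052, adjusted p = 3.56e-05) and with si033 (log2 fold change of -0.23 with an SE of 0.052, adjusted p = 0.000815). HSPD1 and HSPE1 lie head to head on chromosome 2, and their annotated spans overlap by 278 bases on opposite strands, which the strand-specific counting kept apart. On its own strand, 63.8% of the exon bases of HSPE1 (608 of 953) also belong to HSPE1-MOB4, and pairs that fall on both were not counted, so the level of HSPE1 is a lower limit. Per exon length, HSPD1 stood at 1.13 to 1.18 times HSPA9 in control, 0.900 to 0.928 times with si025 and 1.05 to 1.10 times with si033. HSPD1 shares 27.1% of its 50-base words with other genes, many of them processed pseudogenes, whereas TRAP1 shares none.

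The siRNAs were then compared directly. Of the 35 tested genes, 18 differed between si025 and si033 (51.4%, against 60.9% of all genes), with 12 lower with si025 (34.3%, against 29.7%) and 6 higher (17.1%, against 31.2%). The median difference was -0.068 on the log2 scale, against -0.0015 over all genes. Higher with si025 were BAG3, CHORDC1, CCT4, HSPB8, FKBP4 and HSP90AA1. Lower with si025, in order of size, were HSPD1, HSPA8, HSF2, CCT2, TRAP1, DNAJC2, DNAJA1, CCT8, CCT6A, HSPA4, HSPA9 and STIP1. For the genes that were not called, the intervals still bound the difference, as for HSP90AB1 (-0.084 to 0.062) and CCT7 (-0.085 to 0.080).

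For 6 of the 18 genes the call was lost under some alternatives. HSPB8 was lost when any 1 of the 9 libraries was left out, and also with RLE normalization, in DESeq2, with no filter on low counts, with the replicate block and with 2 groups in the fit. HSP90AA1 was lost without control replicate 1 or 2, si025 replicate 3 or si033 replicate 1, 2 or 3, with the stricter filter and with 2 groups in the fit. HSPA4 was lost without si025 replicate 1 or 2 or si033 replicate 2 or 3, with no filter and with 2 groups in the fit. STIP1 was lost without si025 replicate 1 or 3 or si033 replicate 1 or 2, with no filter and with 2 groups in the fit. HSPA9 was lost without si025 replicate 1 or si033 replicate 2 or 3, and DNAJC2 without si025 replicate 1 or si033 replicate 3. The adjusted p-values of these lost calls by edgeR were 0.0516 to 0.169, and 0.0506 to 0.18 for HSPB8 over all tools. The differences of BAG3, CHORDC1, CCT4, FKBP4, HSPD1, HSPA8, HSF2, CCT2, TRAP1, DNAJA1, CCT6A and CCT8 passed in each of the 16 alternatives run.

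**Figure D5:**
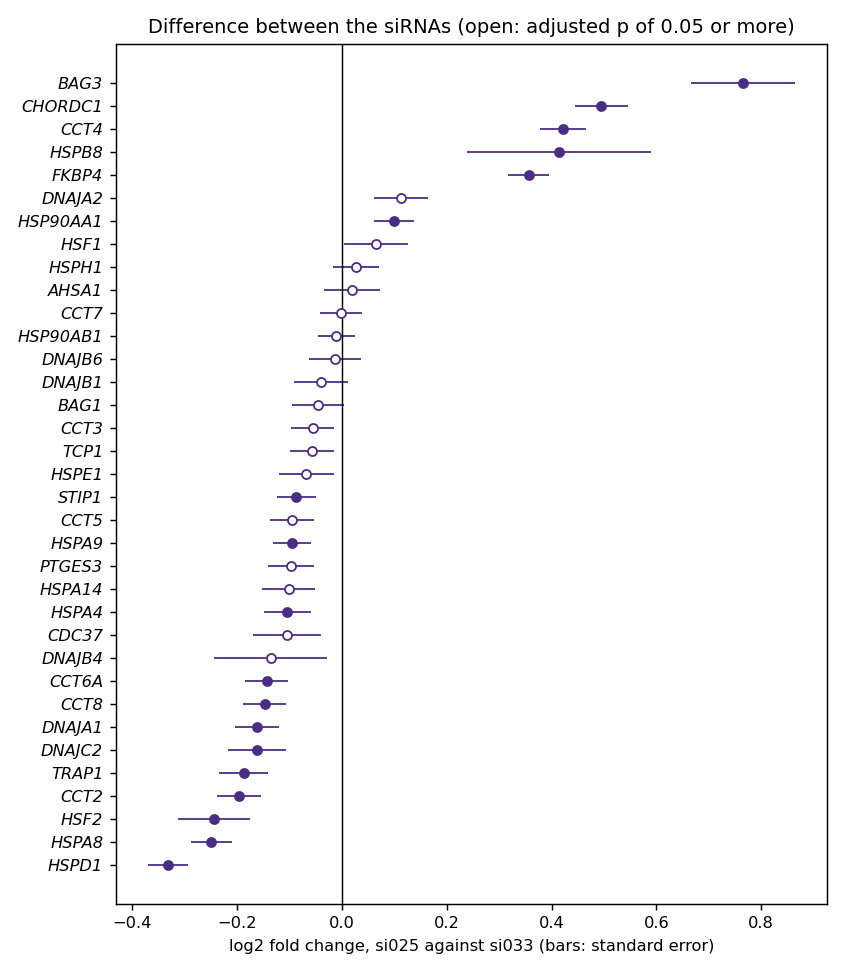
The x axis gives the log2 fold change of si025 against si033 for the 35 tested genes in order of size, with bars for the standard error and open circles where the adjusted p was 0.05 or more. BAG3 (0.77) lies farthest to the right and HSPD1 (-0.33) farthest to the left, and 17 genes are open.

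Chaperone genes outside the list went both ways. Of 89 further genes of the same families and of the prefoldin, protease and heat-inducible groups, 88 were in the files and 74 were tested. With si025, 25 fell and 17 rose (33.8% and 23.0%, against 28.8% and 32.9% of all genes), with a median log2 fold change of -0.077. With si033, 27 fell and 11 rose (36.5% and 14.9%, against 27.8% and 26.9%), with a median of -0.077. The falls with si033 include BAG6, which lies within 500 kb of HSPA1A. Its libraries overlapped, at 0, 13 and 77 counts in control and 0, 2 and 8 with si033. Between the siRNAs 29 differed (39.2%, against 60.9%), 18 lower and 11 higher with si025. The difference between these genes and the 38 was not tested.

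By group, the prefoldins, which pass actin and tubulin to CCT, were listed with other genes linked to CCT or to tubulin folding, and of these 11 tested genes 3 fell (27.3%) and 1 rose (9.09%) with si025 and 2 fell (18.2%) and 1 rose with si033. Mitochondrial chaperone partners and proteases fell in 5 of 8 (62.5%) with si025 and 3 of 8 (37.5%) with si033. The shares of all genes that fell, 28.8% and 27.8%, and rose, 32.9% and 26.9%, are those to set beside these counts. GRPEL1, the nucleotide exchange factor of HSPA9, was the lowest of them, at -0.59 (adjusted p = 9.18e-10) and -0.30 (adjusted p = 2.89e-05). The further J-domain genes went both ways, with 7 of 18 higher (38.9%) and 4 lower (22.2%) with si025 and 5 higher (27.8%) and 7 lower (38.9%) with si033. DNAJB2, a J-domain protein that carries clients to the proteasome, rose with both, by 0.75 (adjusted p = 8.72e-10) and 0.67 (adjusted p = 1.13e-08).

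Several of the further genes that were called with both siRNAs went in opposite directions. DNAJB12, a J-domain protein of the endoplasmic reticulum membrane, lay at 56.2, 60.2 and 53.3 CPM in control, at 63.6, 63.7 and 63.6 CPM with si025 and at 29.6, 28.7 and 32.2 CPM with si033. It rose slightly with si025 (log2 fold change of 0.18 with an SE of 0.056, adjusted p = 0.00984) and fell with si033 (log2 fold change of -0.89 with an SE of 0.062, adjusted p = 2.94e-11), the rise being lost without control replicate 3 (0.12, adjusted p = 0.11 by edgeR). BAG2, an HSP70 exchange factor, moved likewise (0.38 and -0.39), as did HSF4 (0.33 and -0.63). The rise of HSF4 was lost without control replicate 1, 2 or 3 or si025 replicate 1 or 2, with RLE normalization and in DESeq2, at adjusted p-values of 0.0567 to 0.286. ATF3, a stress-induced transcription factor, fell with both (-0.73 and -0.83), as did NUDC, an HSP90 co-chaperone (-0.41 and -0.35).

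SERPINH1, the collagen chaperone HSP47, rose with both (0.45 and 0.33), as did CDC37L1, a relative of CDC37 (0.48 and 0.23), DNAJC18 (0.37 and 0.62) and DNAJC27 (0.40 and 0.31). DNAJC27 lost its call with si033 without control replicate 1, 2 or 3 or si033 replicate 2 or 3 and in DESeq2, at adjusted p-values of 0.0529 to 0.178, and its call with si025 without si025 replicate 3, at 0.0507 by edgeR.

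Per exon length the listed genes spanned a wide range in the control libraries. HSPA8 was the highest at 1225 ± 49.6 RPKM (SD, n = 3 libraries), rank 32 of the 12810 genes tested. It was followed by HSP90AB1 at 858 ± 22.4, HSPD1 at 573 ± 15.9, HSPA9 at 497 ± 9.22 and STIP1 at 453 ± 8.60 RPKM. DNAJB6 lay at 14.0 ± 0.622, BAG3 at 3.88 ± 0.322 and HSPB8 at 0.757 ± 0.0931 RPKM, the last being the lowest of the 35. The 3 genes that rose with si025 were thus among the 6 lowest of the 35 tested in control cells per exon length.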

How the data were processed

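RNA-seq had been carried out on 9 VCaP libraries, 3 per group, which were assigned to control, si025 and si033 by their titles. Adaptor-trimmed read pairs had been aligned to hg38 by the authors with HISAT2 2.1.0. Per the file headers, the deposited counts are whole read pairs per gene symbol over exons, made with featureCounts 1.5.2 set for reverse-stranded pairs and a RefSeq annotation, whereas the methods of the study name GENCODE. The annotation decides which pairs are assigned. By default pairs that map to several places or fall on several genes are not counted, which lowers genes with near-identical copies. The labels name a Promega kit for RNA extraction and the methods a Qiagen kit.

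From these counts, genes passing the default filterByExpr were fitted in R 4.3.3 with the quasi-likelihood test of edgeR 4.0.16 (TMM normalization, all 9 libraries, 3 group means), and p-values were adjusted by Benjamini-Hochberg over all genes tested. The labels do not say whether replicates were separate cultures, while a figure legend of the study gives 3 biological replicates for the knockdown experiments. The p-values measure the spread between these libraries, which may be technical in part. CPM and RPKM used TMM library sizes and the exon length in the files, and intervals cover 95%. Alternatives were RLE and upper quartile normalization, DESeq2 1.42.0, no filter, a filter of 5 CPM in 3 libraries, the replicate number as a block, 2 groups in the fit and leaving out each library. Sequences of promoters were those of RefSeq (GRCh38.p14), and shared 50-base words were counted against GENCODE transcripts.

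The members and gene lists were chosen with earlier results of these data known. All 38 members are named, and of the other chaperone genes the 12 with the largest mean absolute log2 fold change among those called with both siRNAs, of which 11 are given. The remaining one and 1 prostate marker are not reported here.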

Additional observations from a re-analysis of the deposited data

Results flagged for a closer look

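The results listed here were picked out because the response to si025 and the response to si033 differed by a direct test between the 2 siRNA groups (edgeR quasi-likelihood, adjusted over all genes tested). Of the 35 tested chaperone genes 18 did so (51.4%, against 60.9% of all genes tested). All values are si025 minus si033 on the log2 scale. Higher with si025 were BAG3 at 0.77, CHORDC1 at 0.50, CCT4 at 0.42, HSPB8 at 0.41, FKBP4 at 0.36 and HSP90AA1 at 0.099. The chaperones lower with si025 by at least 0.16 were HSPD1 at -0.33, HSPA8 at -0.25, HSF2 at -0.24, CCT2 at -0.20, TRAP1 at -0.19, DNAJC2 at -0.16 and DNAJA1 at -0.16. Smaller differences in that direction were those of CCT8 at -0.15, CCT6A at -0.14, HSPA4 at -0.10, HSPA9 at -0.096 and STIP1 at -0.087. The adjusted p-values of the 18 by edgeR ran from 1.42e-08 (CHORDC1) to 0.0489 (HSPA4).

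Among the 11 other chaperone genes named, 6 differed between the siRNAs by the same test, beside 60.9% of all genes tested. These 11 had been chosen for large changes with both siRNAs. DNAJB12 at 1.06, HSF4 at 0.97, BAG2 at 0.77 and CDC37L1 at 0.25 were higher with si025, and GRPEL1 at -0.29 and DNAJC18 at -0.25 were lower, with adjusted p-values by edgeR of 4.65e-13 to 0.017. DNAJC18 was lost without si025 replicate 3 (-0.18, adjusted p = 0.131) or si033 replicate 2 (-0.21, adjusted p = 0.0676).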

How the results depend on the processing

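Over the 105 gene results of the 35 tested members and 16 alternatives, 88 results kept their side of the threshold in all alternatives that gave a value, and 17 changed side in at least 1. Of the 88, 78 also kept their direction, while 10 that were not called changed sign in at least 1 alternative, and no called result reversed. The number of members called lower was 25 to 27 with si025 and 22 to 25 with si033 over the alternatives, and the number called in the direct comparison was 13 to 20. The number called higher with si033, 2, was 1 in DESeq2, 1 with no filter on low counts, 1 with the stricter filter and 1 to 2 when single libraries were left out. The median log2 fold change with si033, -0.19, was -0.16 with upper quartile normalization and -0.18 with the stricter filter, and ran from -0.20 to -0.18 when single libraries were left out. Not called but called under some alternatives were the differences between the siRNAs of PTGES3 (10 alternatives), CCT5 (9 alternatives), CDC37 (without si025 replicate 2, -0.18, or si033 replicate 2, -0.16) and HSPA14 (stricter filter, -0.12). The causes of these changes were not tested.

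No pairing by replicate number was seen in the correlations of same-numbered libraries' deviations from their group means. These were -0.021 to 0.073, and 0 of 9 were over 0.1. With 3 libraries per group such correlations cannot exclude a pairing. Total counts rose with the replicate number in every group. With the replicate number as a block, 30, 27 and 18 members were called with si025, with si033 and between the siRNAs, and in the last the call of HSPB8 was lost (0.41, adjusted p = 0.0583 by edgeR) and that of PTGES3 gained (-0.098, adjusted p = 0.0466). For the 11 other named genes the alternatives were added after the data had been seen, and 28 of 33 results kept their side of the threshold in all of them. Summing HSPA1A and HSPA1B gave no value, both being at 0. Depth limits HSPB1 and HSPB8, which lay near or under the filter.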
